A study of Homo sapiens with 12 samples.

Results

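HNF4A, FOXA1, FOXA2, FOXA3, CEBPA, CEBPB, NR5A2 and PROX1 are transcription factors enriched in the liver. They were taken by gene name from an RNA-seq table of 22963 gene names, in which all 8 were listed, and their levels were followed across 2 liver cancer cell lines in which the transcription factor EGR1 had been manipulated. The list is one of names, and no threshold on a measured value enters it.

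Hepatocyte identity is held by a small network of transcription factors that bind the promoters and enhancers of the genes for plasma proteins, lipid carriers and metabolic enzymes, and that also bind one another's regulatory regions. HNF4A is a nuclear receptor at the centre of this network, the FOXA proteins are forkhead factors able to bind DNA within closed chromatin, and the C/EBP proteins are leucine zipper factors that act in metabolic and acute phase transcription. NR5A2, also called LRH-1, is a nuclear receptor of bile acid and cholesterol genes, and PROX1 is a homeobox factor of the early hepatoblast that interacts with both HNF4A and NR5A2. EGR1, the factor that was manipulated, is an immediate early zinc finger protein that binds GC-rich DNA.

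Both lines come from human hepatocellular carcinoma. PLC/PRF5 cells carried either the empty vector or an EGR1 vector, and MHCC97H cells were either parental or labelled EGR1 knockout, with 3 biological replicates in each of the 4 groups. According to the study's methods, the EGR1 coding sequence was expressed from the CMV promoter of a lentiviral plasmid that also encodes copGFP and puromycin resistance, and knockout cells were made with LentiCRISPR-v2 and grown from single clones. Which clone was sequenced was not stated in the sources used here, and the MHCC97H control had no vector, so a difference between clones or the effect of the vector cannot be told apart from the effect of the edit.

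Expression was given as FPKM, a level per transcript length and per library, which puts the genes of a library on the same scale. Library preparation included a nuclease step, and its effect on levels between genes was not tested. Ranks, percentiles and ratios between genes therefore describe the libraries as sequenced, and need not equal those in the RNA of the cells. The number of reads was unknown, and no counting error could be given. The libraries had FPKM sums of 376335 to 437652, between 16339 and 17556 gene names were above 0, and the log2 values of replicate libraries correlated across genes with r between 0.993 and 0.997. In bulk RNA, fewer cells that express a gene and less RNA per cell cannot be told apart.

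EGR1 checked the labels. Its FPKM was 1.97, 1.43 and 2.03 in vector PLC/PRF5 cells and 56.3, 50.2 and 52.2 with EGR1 overexpression. In MHCC97H it was 20.2, 23.1 and 21.2 in parental libraries and 35.2, 50.3 and 32.9 in the libraries labelled knockout, where it was therefore higher and not lower (log2 change 0.83 ± 0.15 SE, limma adjusted p = 0.00126, and 0.46 with adjusted p = 0.0601 after correction for GC content and length). An edit within the coding sequence need not lower the mRNA, so this value checks neither the edit nor the protein. According to the study's methods, knockout in the expanded clones was checked by western blot and by sequencing of the DNA. The group is called the libraries labelled knockout throughout, and no direction of EGR1 function is drawn from it.

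**Figure D1:**
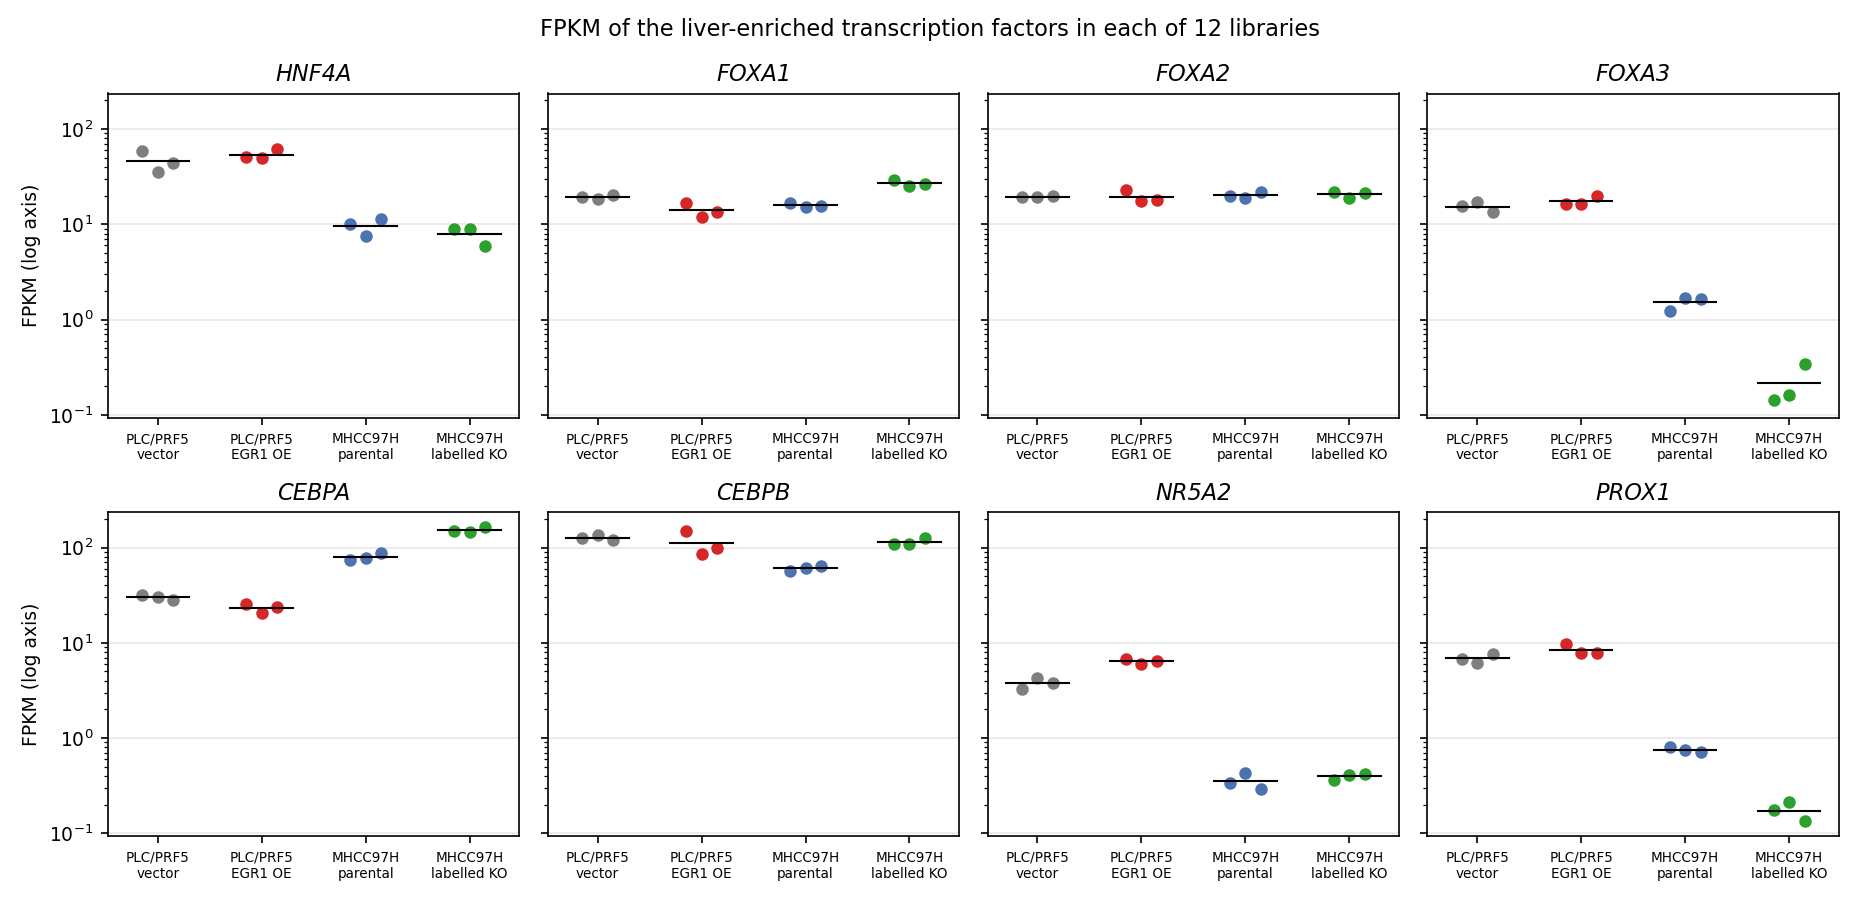
FPKM of the 8 factors on a log axis, 1 point for each of the 3 libraries of a group and a line at the group mean. FOXA2 sits between 17.4 and 23.0 in all 12 libraries, whereas NR5A2 and PROX1 lie below 1 in every MHCC97H library and above 3 in every PLC/PRF5 library.

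Within vector PLC/PRF5 cells, CEBPB had the highest level at a mean FPKM of 126.6, followed by HNF4A at 45.6, CEBPA at 30.0, FOXA2 and FOXA1 at 19.4 each, FOXA3 at 15.3, PROX1 at 6.87 and NR5A2 at 3.76. FOXA2 and FOXA1 overlapped and every other neighbour in this order was separated by all 3 libraries. With EGR1 overexpression, CEBPA, FOXA2, FOXA3 and FOXA1 formed a chain in which each overlapped the next. In parental MHCC97H cells the order was CEBPA at 79.9, CEBPB at 60.2, FOXA2 at 20.2, FOXA1 at 15.9, HNF4A at 9.64, FOXA3 at 1.53, PROX1 at 0.753 and NR5A2 at 0.352, with no neighbours overlapping. The libraries labelled knockout had FOXA1 above FOXA2, and FOXA3 and PROX1 overlapped at the bottom with means of 0.216 and 0.173. HNF4A thus stood at percentile 91.6 of the genes above 0 in vector PLC/PRF5 cells and at percentile 68.1 in parental MHCC97H cells, while CEBPA stood at 87.0 and 96.4.

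Each pair of groups was compared with limma on log2(FPKM + 1), keeping genes whose FPKM averaged 1 or more over the 6 libraries, with p-values 2-sided and adjusted over all genes tested by the Benjamini-Hochberg method. Changes on this scale understate those of genes near an FPKM of 1. With 3 libraries against 3, the smallest exact permutation p is 0.1. With EGR1 overexpression, all 8 factors were tested: NR5A2 rose, FOXA1 and CEBPA fell, and HNF4A, FOXA2, FOXA3, CEBPB and PROX1 did not pass the threshold. Among all 11671 genes tested, 19.2% rose and 10.4% fell, and the groups did not overlap for 47.7%, against 4 of the 8 factors. Among the MHCC97H libraries 5 factors were tested: in those labelled knockout FOXA1, CEBPA and CEBPB rose, and HNF4A and FOXA2 did not pass, beside 34.8% of 11577 genes that rose and 31.5% that fell. Groups did not overlap for 3 of those 5, beside 71.8% of all genes. FOXA3, NR5A2 and PROX1 had a mean FPKM below 1 in MHCC97H and were outside this test.

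Between the control groups, parental MHCC97H against vector PLC/PRF5, CEBPA was higher and HNF4A, FOXA1, FOXA3, CEBPB, NR5A2 and PROX1 were lower in MHCC97H, and FOXA2 did not pass. Of 12046 genes, 38.8% were higher and 40.9% lower, and groups did not overlap for 81.0% of genes and for 7 of the 8 factors. The line and the presence of the vector cannot be told apart in this comparison. The shares of all genes called were large in each comparison, so a call by itself did not set a factor apart, and the sizes below are given for that reason. NR5A2 and PROX1 averaged below 1 in parental MHCC97H and entered the control comparison only through their PLC/PRF5 level, so their calls there follow in part from the filter.

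Transcript GC content moved with the changes. Across tested genes, which are not independent replicates, 17.9% of the variance of the changes with EGR1 overexpression was accounted for by transcript GC content and length, as was 52.5% in the libraries labelled knockout and 7.61% between the controls. In the knockout-labelled comparison GC-rich transcripts were higher (Spearman's rho 0.753 between GC content and change over 10806 genes), and with EGR1 overexpression they were lower (rho -0.437 over 10829 genes). The factors spanned this range, from 40.0% GC for NR5A2 and 40.7% for PROX1 through 51.3% for FOXA1, 52.8% for HNF4A, 58.2% for FOXA2 and 60.8% for FOXA3 to 65.9% for CEBPA and 66.2% for CEBPB, beside a median of 48.3% of tested genes in MHCC97H. Each change is therefore given also after a spline on GC content and length was removed from every library, which takes away a biological trend along with a technical one. With that correction 36.5% of genes were called with EGR1 overexpression, 47.0% in the libraries labelled knockout and 80.7% between the controls. What gave rise to the trend was not tested.

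**Figure D2:**
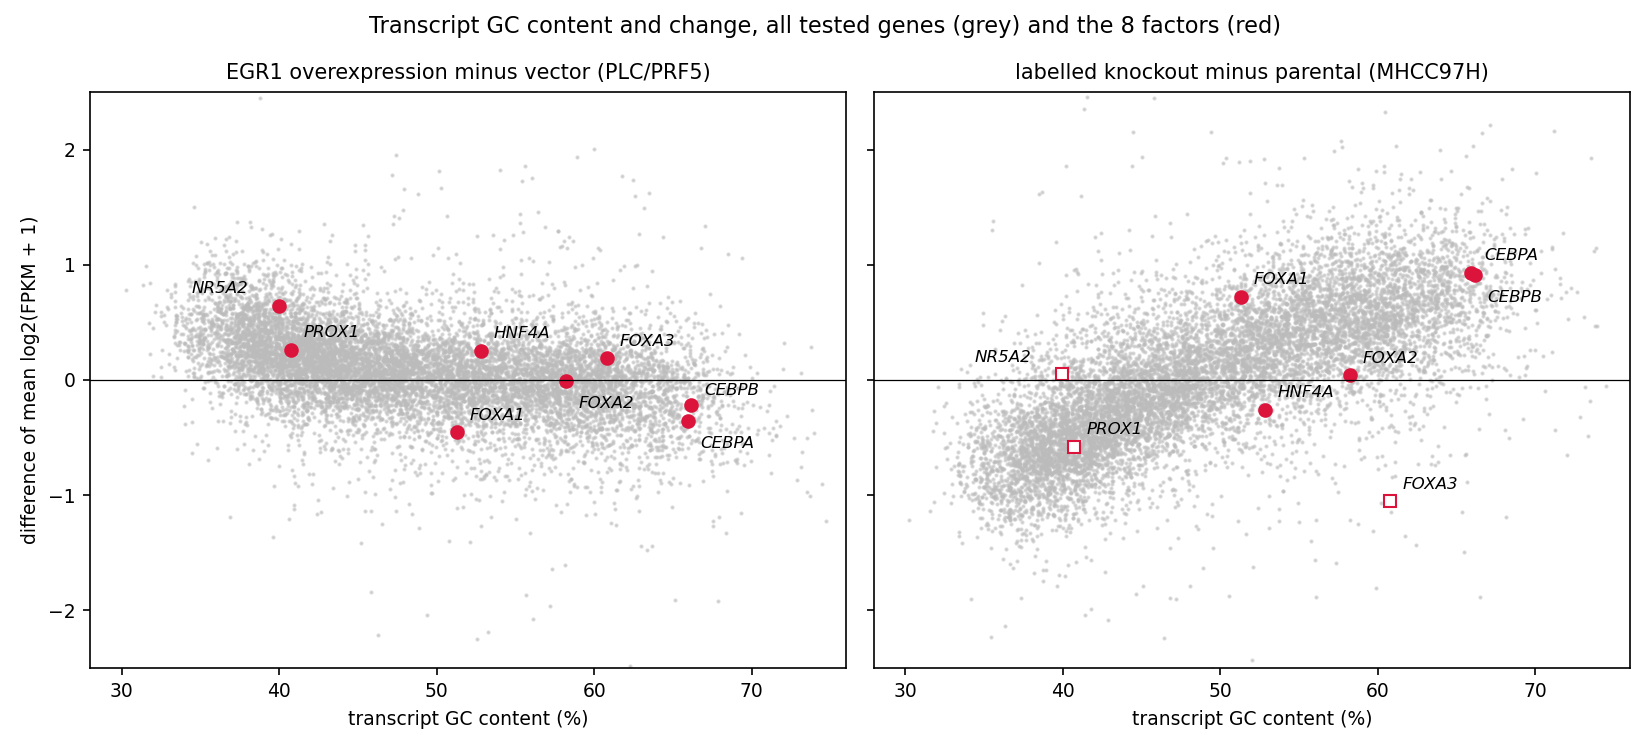
Transcript GC content in percent (x axis) against the difference of mean log2(FPKM + 1) (y axis) for all tested genes in grey and the 8 factors in red, with open squares for factors whose mean FPKM was below 1; 7 genes on the left and 22 on the right lie outside the axes. In MHCC97H the cloud rises with GC content, CEBPA and CEBPB sit at its GC-rich end, and FOXA3 lies far below it at 60.8% GC.

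HNF4A, encoded on the plus strand of chromosome 20 (chr20:44355700-44434596, GRCh38, 10 exons in its longest transcript), had FPKM of 58.3, 35.0 and 43.7 in vector PLC/PRF5 cells and 51.0, 49.1 and 61.1 with EGR1 overexpression. In MHCC97H it had 9.97, 7.57 and 11.4 in parental libraries and 8.90, 8.97 and 5.87 in those labelled knockout. The groups overlapped within each line and lay far apart between the lines. The log2 change was 0.26 ± 0.17 (SE, limma adjusted p = 0.279, 95% interval -0.13 to 0.64) with EGR1 overexpression and -0.26 ± 0.18 (limma adjusted p = 0.223, interval -0.66 to 0.14) in the libraries labelled knockout, and 0.30 (adjusted p = 0.0910) and -0.42 (0.0909) after the GC and length correction. The parental MHCC97H mean was 4.73-fold below that of vector PLC/PRF5 (log2 change -2.12 ± 0.19, limma adjusted p = 1.09e-05). The vector libraries had a coefficient of variation of 25.7%, the largest of the 4 groups for HNF4A.

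The FOXA genes lie on separate chromosomes, FOXA1 at chr14:37589984-37596059 and FOXA2 at chr20:22581005-22585455 on the minus strand, and FOXA3 at chr19:45863989-45873797 on the plus strand. FOXA1, which opens liver and hormone receptor enhancers, had FPKM of 19.5, 18.3 and 20.2 with the vector and 16.6, 11.9 and 13.4 with EGR1 overexpression. The groups did not overlap, and the level was 1.39-fold lower with EGR1 (log2 change -0.45 ± 0.12, limma adjusted p = 0.0212, and -0.35 with adjusted p = 0.0492 after the GC and length correction). This call did not survive leaving out vector replicate 1 (-0.45, adjusted p = 0.0545) or 3 (-0.42, 0.0755), or EGR1 replicate 2 (-0.35, 0.0817) or 3 (-0.43, 0.0685), or testing genes of any level (0.0537).

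In MHCC97H, FOXA1 had FPKM of 16.6, 15.3 and 15.7 in parental libraries and 29.2, 24.9 and 26.5 in those labelled knockout. All 3 libraries labelled knockout were above all parental ones, by 1.69-fold on the means (log2 change 0.72 ± 0.09, limma adjusted p = 2.19e-04). At a GC content near the middle of the range, FOXA1 kept most of its change after the correction (0.53, limma adjusted p = 0.00135), and its values under all alternatives ran from 0.53 to 0.77. Between the controls FOXA1 was 0.27 ± 0.08 lower in MHCC97H on the log2 scale (limma adjusted p = 0.0149), a call lost with scaling to a common total (adjusted p = 0.122), quantile normalization (0.0551), the GC and length correction (0.470), or without vector replicate 3 (-0.24, 0.0656) or parental replicate 2 (-0.25, 0.0681).

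FOXA2, which is required with FOXA1 for the onset of liver development, had FPKM of 19.3, 19.2 and 19.7 with the vector, 23.0, 17.4 and 17.8 with EGR1 overexpression, 19.8, 18.9 and 21.8 in parental MHCC97H and 22.0, 18.9 and 21.4 in the libraries labelled knockout. All 4 groups overlapped. The log2 change was -0.01 ± 0.11 (limma adjusted p = 0.946, 95% interval -0.26 to 0.24) with EGR1 overexpression and 0.04 ± 0.10 (limma adjusted p = 0.731, interval -0.18 to 0.26) in the libraries labelled knockout. Relative to other transcripts as rich in GC, however, FOXA2 was lower in the libraries labelled knockout (-0.49, limma adjusted p = 0.00101 after the correction) and higher in MHCC97H than in PLC/PRF5 (0.47, adjusted p = 1.22e-04). The sign of its change in the libraries labelled knockout turned also with scaling to a common total (-0.11), quantile normalization (-0.07) and without parental replicate 2 (-0.003) or knockout replicate 1 (-0.0005).

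FOXA3, the FOXA factor that rises late in liver development and persists in adult hepatocytes, had FPKM of 15.5, 17.0 and 13.4 with the vector and 16.4, 16.4 and 19.9 with EGR1 overexpression, where the groups overlapped (log2 change 0.19 ± 0.11, limma adjusted p = 0.239, and 0.36 with adjusted p = 0.0160 after the correction). In parental MHCC97H it had 1.23, 1.70 and 1.66, which was 10.0-fold below vector PLC/PRF5 (log2 change -2.69 ± 0.12, limma adjusted p = 1.28e-07). The libraries labelled knockout had 0.143, 0.161 and 0.345, all below all parental values and 7.07-fold lower on the means. The exact permutation p of that difference was 0.1. Testing genes of any level gave a log2 change of -1.06 (limma adjusted p = 0.00108), and -1.49 (adjusted p = 1.45e-05) with the GC and length correction added after the data were seen. The fall of FOXA3 was opposite in sign to the GC trend and was larger once the trend was removed, at an FPKM below 1 in the libraries labelled knockout.

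The proportions of the FOXA family differed accordingly. FOXA1 had between 0.956 and 1.03 times the FPKM of FOXA2 in vector libraries and between 0.686 and 0.754 times with EGR1 overexpression, and between 0.717 and 0.843 times in parental MHCC97H and between 1.24 and 1.33 times in the libraries labelled knockout. FOXA3 had between 0.682 and 1.12 times the FPKM of FOXA2 in PLC/PRF5, and at most 0.0900 times in MHCC97H.

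**Figure D3:**
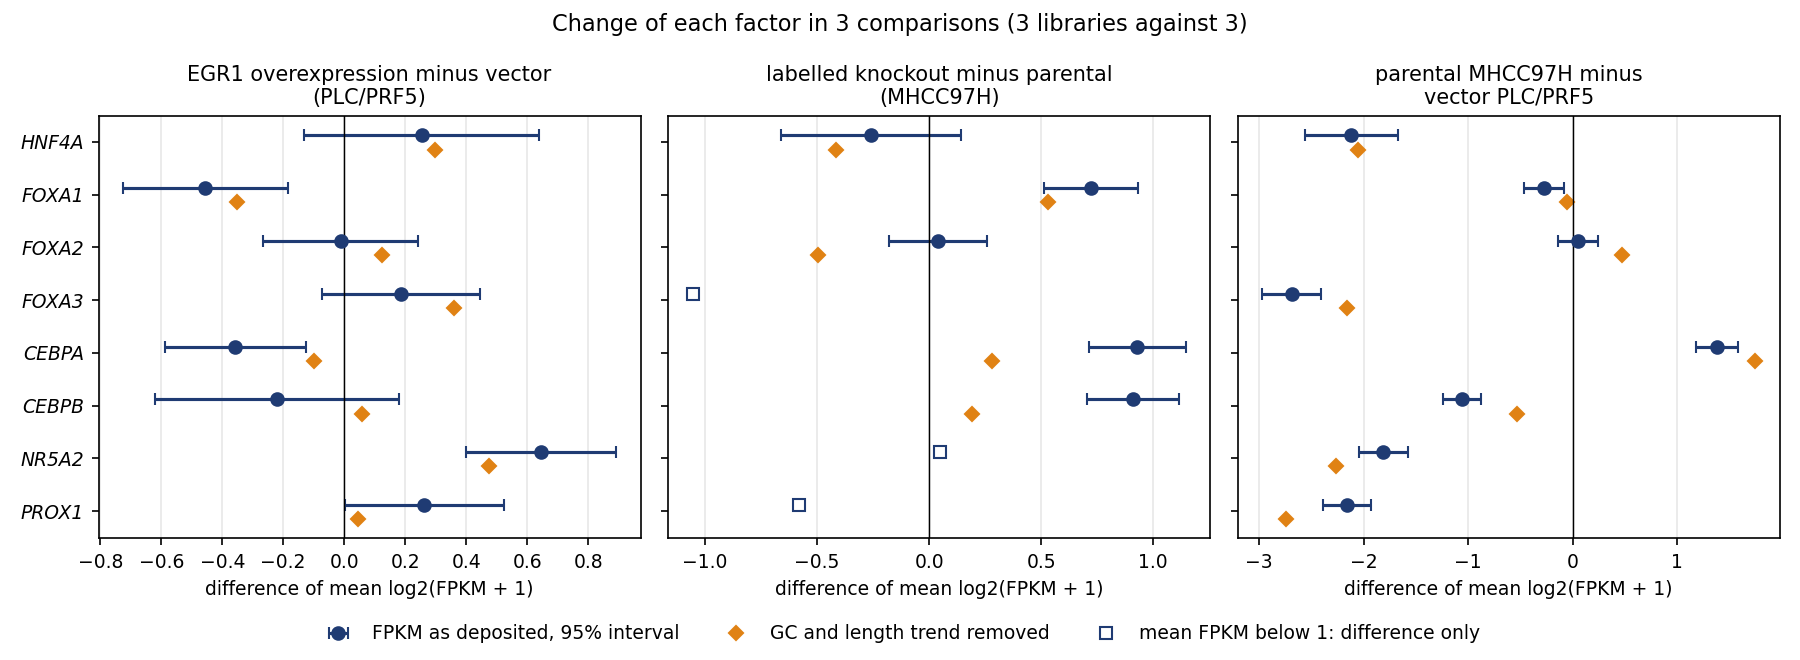
Difference of mean log2(FPKM + 1) for each factor in 3 comparisons of 3 libraries with 3; circles with bars are FPKM as deposited with the 95% interval, diamonds the values after removal of the GC and length trend, and open squares factors with mean FPKM below 1, shown without an interval. NR5A2 lies at 0.64 with EGR1 overexpression, and CEBPA moves from 0.93 to 0.28 with the correction in the libraries labelled knockout.

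CEBPA and CEBPB are single-exon genes on the minus strand of chromosome 19 (chr19:33299934-33302564) and the plus strand of chromosome 20 (chr20:50190734-50192689). CEBPA, which restrains proliferation and drives metabolic genes of the adult hepatocyte, had FPKM of 31.6, 30.2 and 28.3 with the vector and 25.8, 20.4 and 23.6 with EGR1 overexpression. All EGR1 libraries were below all vector libraries (log2 change -0.36 ± 0.10, limma adjusted p = 0.0295), but the call was lost after the GC and length correction (-0.10, adjusted p = 0.287). It was lost too without vector replicate 1 (-0.32, adjusted p = 0.0889) or 3 (-0.40, 0.0580), without EGR1 replicate 2 (-0.27, 0.118) or 3 (-0.37, 0.0730), and when genes of any level were tested (0.0560). In MHCC97H, CEBPA had 74.0, 78.0 and 87.5 in parental libraries and 147.6, 145.9 and 165.2 in those labelled knockout, 1.91-fold higher (log2 change 0.93 ± 0.10, limma adjusted p = 7.51e-05). After the correction the change was 0.28 (adjusted p = 0.00171). Parental MHCC97H was 2.66-fold above vector PLC/PRF5 for CEBPA (log2 change 1.38 ± 0.09, limma adjusted p = 1.05e-06).

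CEBPB, induced by interleukin signalling and during liver regeneration, had FPKM of 124.5, 135.5 and 119.8 with the vector and 148.4, 86.1 and 99.5 with EGR1 overexpression. The EGR1 libraries stood on both sides of the vector libraries (log2 change -0.22 ± 0.18, limma adjusted p = 0.366, and 0.06 after the correction), and without EGR1 replicate 1 the change was -0.45 (adjusted p = 0.0141). In MHCC97H it had 56.6, 60.5 and 63.5 in parental libraries and 108.5, 109.1 and 125.1 in those labelled knockout, 1.90-fold higher (log2 change 0.91 ± 0.09, limma adjusted p = 6.90e-05), of which 0.19 was left after the correction (adjusted p = 0.00792). Parental MHCC97H was 2.10-fold below vector PLC/PRF5 (log2 change -1.06 ± 0.08, limma adjusted p = 3.33e-06, and -0.54 after the correction).

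CEBPA and CEBPB kept nearly the same proportion within a line. The FPKM of CEBPA was 0.223 to 0.253 times that of CEBPB in vector libraries and 0.174 to 0.237 times with EGR1 overexpression, and 1.29 to 1.38 times in parental MHCC97H and 1.32 to 1.36 times in the libraries labelled knockout. The ranges overlapped within each line and differed between the lines. CEBPA and CEBPB have nearly the same transcript GC content, 65.9% and 66.2%.

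NR5A2 lies on the plus strand of chromosome 1 (chr1:200027602-200177424). Its FPKM was 3.27, 4.26 and 3.75 with the vector and 6.84, 6.01 and 6.42 with EGR1 overexpression, where every EGR1 library was above every vector library. The level rose 1.71-fold (log2 change 0.64 ± 0.11, limma adjusted p = 0.00379), and the change kept its call after the GC and length correction (0.48, adjusted p = 0.00250) and in all 17 alternatives, with values from 0.48 to 0.76. In MHCC97H, NR5A2 had 0.338, 0.428 and 0.292 in parental libraries and 0.367, 0.405 and 0.418 in those labelled knockout, and the groups overlapped. It was 10.7-fold lower in parental MHCC97H than in vector PLC/PRF5 (log2 change -1.81 ± 0.10, limma adjusted p = 5.18e-07).

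PROX1 lies on the plus strand of chromosome 1 as well (chr1:213983181-214041502). Its FPKM was 6.73, 6.21 and 7.68 with the vector and 9.67, 7.89 and 7.81 with EGR1 overexpression. The groups did not overlap, and the log2 change of 0.26 ± 0.12 did not pass the threshold (limma adjusted p = 0.114, and 0.05 with adjusted p = 0.681 after the correction). In MHCC97H it had 0.810, 0.744 and 0.706 in parental libraries and 0.175, 0.211 and 0.134 in those labelled knockout, 4.35-fold lower with no overlap. The exact permutation p was 0.1. Testing genes of any level gave a log2 change of -0.58 (limma adjusted p = 7.22e-04), which was -0.13 (adjusted p = 0.140) with the correction added after the data were seen. The correction is fitted over all genes, and at this level it can be as large as the change. It moved NR5A2, of like GC content and also below an FPKM of 1 in MHCC97H, from 0.05 to 0.47. Whether the fall of PROX1 follows GC content was not tested. PROX1 was 9.12-fold lower in parental MHCC97H than in vector PLC/PRF5 (log2 change -2.16 ± 0.10, limma adjusted p = 1.44e-07).

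The changes in the 2 EGR1 comparisons, which share no library, were then set against each other in a fit of all 12 libraries. The change with EGR1 overexpression differed from that in the libraries labelled knockout for 6 of the 8 factors, beside 63.8% of 12090 genes. The difference was -1.29 ± 0.14 on the log2 scale for CEBPA (limma adjusted p = 1.27e-05), -1.18 ± 0.15 for FOXA1 (4.49e-05) and -1.13 ± 0.22 for CEBPB (7.07e-04). In the other direction it was 1.24 ± 0.17 for FOXA3 (7.32e-05), 0.84 ± 0.14 for PROX1 (2.70e-04) and 0.60 ± 0.13 for NR5A2 (0.00169). These 3 factors, which averaged below 1 over the MHCC97H libraries, entered this fit only through PLC/PRF5. At the FPKM of 0.292 to 0.428 of NR5A2 in MHCC97H, log2(FPKM + 1) has little room to change, so its difference is in effect its change in PLC/PRF5. FOXA1 and CEBPA passed in both comparisons, falling with EGR1 overexpression and rising in the libraries labelled knockout. The fall of CEBPA was not called after the GC and length correction (-0.10). Both falls lost their call in some alternatives, 9 of 17 for CEBPA and 7 of 17 for FOXA1. After the GC and length correction FOXA1 (-0.90, limma adjusted p = 4.99e-04), CEBPA (-0.44, 7.20e-04) and FOXA3 (2.02, 2.29e-07) still differed between the comparisons. CEBPB (-0.21, 0.377), NR5A2 (-0.10, 0.521) and PROX1 (0.04, 0.785) no longer did, and HNF4A (0.70, 0.0286) and FOXA2 (0.59, 0.00735) then passed. For NR5A2 and PROX1 the correction shifted MHCC97H values near the floor of log2(FPKM + 1). The same holds for FOXA3 in the libraries labelled knockout, at FPKM of 0.143 to 0.345. Its difference went from 1.24 to 2.02 with the correction, and the larger value is not read as a firmer one. Over genes of any level the correction took NR5A2 in MHCC97H from 0.05 to 0.47, while the NR5A2 change with EGR1 overexpression kept its call. The lost NR5A2 difference is therefore not read as equal changes in the 2 comparisons. HNF4A passed also without vector replicate 1 (0.70, adjusted p = 0.0332), against 0.52 ± 0.28 (0.119) with all libraries.

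Promoter windows of the factors were searched for GCGNGGGCG, the core of the sequence that EGR1 binds, on both strands. RefSeq windows of 300 bases on GRCh38.p14, from 250 before to 50 after an annotated start, were given for 6 of the 8 factors, and FOXA2 and PROX1 had none. FOXA3 and CEBPA held the letters, as did 9.43% of all 35116 windows, and HNF4A, FOXA1, CEBPB and NR5A2 held none. The pieces around the matches are shown because these are factors whose changes differed between the EGR1 comparisons, with the motif in capitals, read 5′ to 3′ on the strand of the gene. FOXA1, CEBPB and NR5A2, whose changes also differed, held no match. The FOXA3 piece is chr19:45864264-45864292 on the plus strand, with the motif 52 bases before the start, and the CEBPA piece is chr19:33302496-33302524 on the minus strand, with 2 overlapping matches from 18 bases after it.
FOXA3: cccggggcggGCGAGGGCGggggtgtccc
CEBPA: cggaggtGCGCGGGCGCGGGCGagcaggg
The windows had a GC content of 76.3% and 80.7%, beside a median of 58.7% over all windows, and binding was not measured in these data. In the libraries labelled knockout FOXA3 was 7.07-fold lower and CEBPA 1.91-fold higher, the latter at a log2 change of 0.28 after the GC and length correction. Whether the motif has a part in either change was not tested.

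A list of 37 other liver transcription regulators gives the surroundings of these factors. With EGR1 overexpression 7 of the 29 tested rose, 6 fell and 16 did not pass, beside 19.2% of all genes that rose and 10.4% that fell. HNF4G, the paralogue of HNF4A, rose from a mean FPKM of 2.00 to 4.88 (log2 change 0.98 ± 0.17, limma adjusted p = 0.00450), and ONECUT1, which acts upstream of HNF4A in the liver, rose from 3.94 to 7.61 (0.82 ± 0.14, adjusted p = 0.00396). The stress factor DDIT3 and TBX3, a T-box factor of liver progenitor cells, rose by 0.75 and 0.53. CREB3L3, a liver factor of lipid metabolism, fell from 21.6 to 10.8 (-0.93 ± 0.16, adjusted p = 0.00401), and SOX9 of biliary and progenitor cells fell from 11.3 to 5.82 (-0.87 ± 0.14, 0.00274). ZHX2, a repressor of fetal liver genes, and NFIL3, a clock-linked repressor, fell by 0.70 and 0.51. All 8 of these calls held after the GC and length correction.

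Of 27 regulators tested in the libraries labelled knockout 14 rose and 6 fell, beside 34.8% and 31.5% of all genes, with a median log2 change of 0.43, where all genes had 0.02. After the GC and length correction 12 rose and 7 fell, and the median was 0.22, where all genes had 0.03. CEBPD, another acute phase C/EBP factor, had 7.93, 9.88 and 9.73 in parental libraries and 31.7, 34.2 and 36.9 in those labelled knockout (log2 change 1.80 ± 0.11, limma adjusted p = 1.14e-05, and 1.10 after the correction). CREB3L3 and RXRA, the partner of many nuclear receptors, rose by 0.97 and 0.80, which became 0.41 and 0.33 after the correction. TBX3 had 21.1, 20.8 and 22.7 in parental libraries and 1.94, 1.63 and 1.78 in those labelled knockout, 12.1-fold lower (-3.02 ± 0.10, adjusted p = 5.25e-07). CEBPG, a C/EBP partner lacking an activation domain, and NFIL3 fell by 0.56 and 0.42, and after the correction were at -0.29 and -0.43. ZBTB20 fell by 0.53 (adjusted p = 0.0144) but was 0.30 higher (0.0451) after the correction. Scaling all libraries to a common total moved the median of all genes from 0.02 to -0.11 in this comparison.

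**Figure D4:**
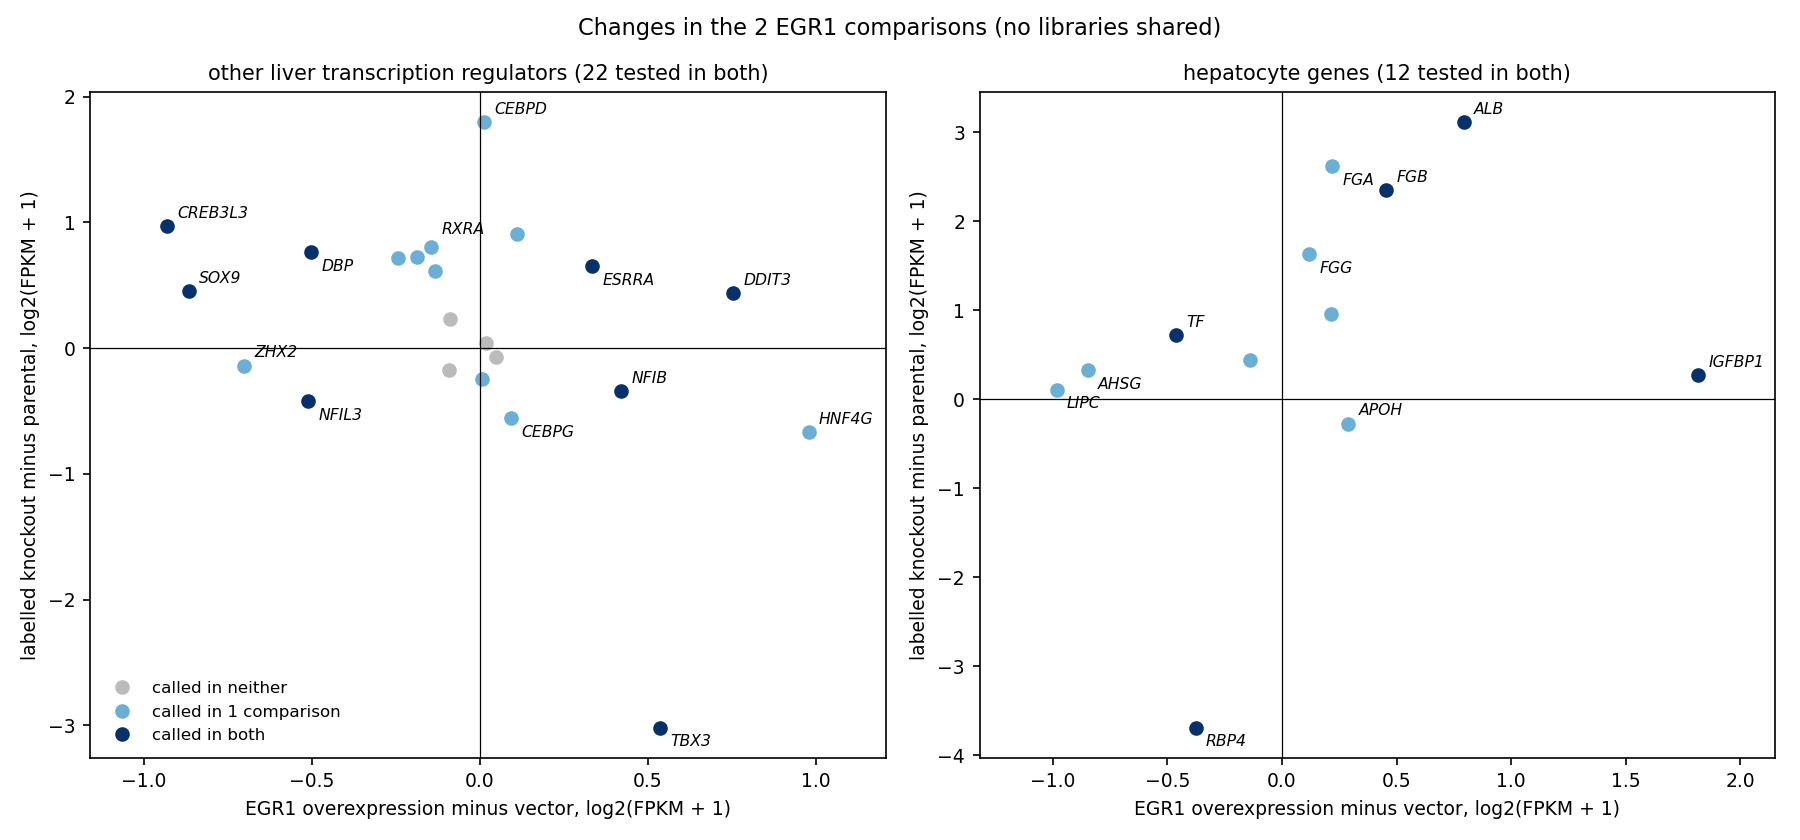
Difference of mean log2(FPKM + 1) with EGR1 overexpression (x axis) and in the libraries labelled knockout (y axis) for the 22 other regulators and the 12 hepatocyte genes tested in both, coloured by the number of comparisons in which they passed. TBX3 lies at 0.53 and -3.02, CREB3L3 at -0.93 and 0.97, and ALB at 0.79 and 3.11.

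Of the 22 regulators tested in both EGR1 comparisons 8 passed in both. The share of all genes passing in both was not taken, so this count does not set the regulators apart. CREB3L3, SOX9 and DBP, a clock factor, fell with EGR1 overexpression and rose in the libraries labelled knockout, TBX3 and NFIB did the opposite, and DDIT3, ESRRA and NFIL3 went the same way in both. After the correction DBP (limma adjusted p = 0.0589) and ESRRA (0.925) were no longer called in the libraries labelled knockout, and NFIB was not called with EGR1 overexpression (0.207) and turned to 0.32 in the libraries labelled knockout.

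Between the controls, the regulators with a mean FPKM of at least 1 numbered 30 of 37 in vector PLC/PRF5 and 28 in parental MHCC97H. GATA6, a factor of early liver development, had a mean FPKM of 0.00782 in vector PLC/PRF5 and 15.8 in parental MHCC97H. The bile acid receptor NR1H4 had 0.0573 and 6.46, the orphan receptor NR2F1 had 0.191 and 4.59, and RXRA had 5.11 and 22.4. NR0B2, a corepressor that binds HNF4A and NR5A2, had 4.82 and 0.0306, ZHX2 11.8 and 1.36, and ONECUT1 3.94 and 0.239.

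Hepatocyte genes known as targets of these factors were followed as a list of 40. The mean FPKM was at least 1 for 23 of them in vector PLC/PRF5 and for 12 in parental MHCC97H. Of 21 genes kept as hepatocyte markers, 17 were at or above 1 in vector PLC/PRF5 and 8 in parental MHCC97H, with a summed FPKM of 2877 to 2961 and 68.1 to 74.1 in a library. SERPINA1 had a mean of 1372 in vector PLC/PRF5 and 0.212 in parental MHCC97H, the urea cycle gene CPS1 had 445.6 and 0.0106, the vitronectin gene VTN had 352.1 and 0.526, and ASGR1 of the asialoglycoprotein receptor had 173.7 and 0.397. Genes near 0 in MHCC97H entered the test only through PLC/PRF5, so the tested genes are not counted by direction here. The 3 called higher in MHCC97H were CYP27A1, a bile acid enzyme, at 0.0274 and 48.8, APOH, higher by 1.03 on the log2 scale, and LIPC at 10.8 and 13.8.

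Markers of biliary or progenitor cells had a mean FPKM of at least 1 for 5 of 10 in vector PLC/PRF5 and for 7 in parental MHCC97H, and the summed FPKM of all 10 was 119.1 to 159.4 in vector libraries and 655.4 to 719.0 in parental ones. SPP1 had means of 0.0264 and 261.5, KRT19 0.624 and 130.7, MMP7 1.60 and 192.1, and CLDN4 1.15 and 45.2, while CD24 was lower at 112.2 and 16.6. KRT7 was lower by 0.59, which became 0.01 after the correction. Of 10 mesenchymal markers 4 had a mean of at least 1 in each line, and CDH2, FN1 and ZEB1 were higher in MHCC97H, at mean FPKM of 35.6, 1578 and 6.70 against 0.433, 323.0 and 1.52. VIM did not pass, at 6.47 against 7.43. Among those too low to be tested, SPARC and COL1A1 were lower in MHCC97H, at 0.0786 and 0.00559 against 1.37 and 0.216. ZEB2 and SNAI2 were higher, at 0.210 and 0.670 against 0, and TWIST1 and COL1A2 were near 0 in both lines. Among the 8 factors, HNF4A, FOXA3, CEBPB, NR5A2 and PROX1 were lower in MHCC97H, as was FOXA1 by a call that some alternatives lost. CEBPA was higher, at a mean FPKM of 79.9 against 30.0, and FOXA2 did not pass. The factors thus did not move as one. The summed level of the hepatocyte markers was lower in MHCC97H, and that of the biliary markers was higher. For the mesenchymal markers the sum was 248.8 to 381.1 in vector libraries and 1517 to 1710 in parental ones, most of it FN1. Any link between the factors and these markers was not tested.

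With EGR1 overexpression 5 of 24 hepatocyte genes rose, 5 fell and 14 did not pass, beside 19.2% of all genes that rose and 10.4% that fell. APOA1, the main protein of high density lipoprotein, had FPKM of 2.06, 4.07 and 3.39 with the vector and 113.6, 107.6 and 117.1 with EGR1, 35.5-fold higher (log2 change 4.80 ± 0.16, limma adjusted p = 1.44e-06). IGFBP1, a secreted binder of insulin-like growth factors, rose 3.53-fold from 260.6 to 919.8 (1.81 ± 0.11, adjusted p = 2.76e-05). SERPINA1, encoding alpha-1 antitrypsin, and ALB, encoding albumin, rose by 0.89 and 0.79. LIPC (hepatic lipase), AHSG (fetuin-A), F10 (coagulation factor X) and TF (transferrin) fell by 0.98, 0.85, 0.66 and 0.46. All of these calls held after the GC and length correction, with TF then at -0.78. CD24 and MMP7 were the 2 of 4 tested biliary and progenitor markers that passed, falling by 0.61 and 0.56. Of 3 mesenchymal markers tested, ZEB1 passed with 0.40, which was 0.15 (adjusted p = 0.315) after the correction.

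In the libraries labelled knockout 8 of 13 hepatocyte genes rose, 2 fell and 3 did not pass, beside 34.8% of all genes that rose and 31.5% that fell. These counts follow in part from the filter. ALB averaged below 1 in parental libraries and RBP4 below 1 in those labelled knockout, and each was tested through the other group. APOB, at means of 1.27 and 0.150 with no overlap, averaged below 1 over both groups and was not tested. ALB had 1.21, 0.611 and 0.830 in parental libraries and 16.5, 15.1 and 14.1 in those labelled knockout, 17.2-fold higher (log2 change 3.11 ± 0.14, limma adjusted p = 1.61e-06). The fibrinogen genes FGA, FGB and FGG, which are acute phase genes, rose by 2.62, 2.35 and 1.63, and these 4 rises were at least as large after the correction. RBP4, the retinol carrier, had 23.4, 22.5 and 25.3 in parental libraries and 1.38, 0.690 and 0.736 in those labelled knockout, 25.3-fold lower (-3.69 ± 0.14, adjusted p = 7.58e-07). APOH fell by 0.28, which was -0.07 (adjusted p = 0.498) after the correction. Among biliary and progenitor markers CD24 rose by 2.56, KRT19 by 0.91 and KRT7 by 0.45 and SOX4 fell by 0.49 in 7 tested, and after the correction KRT19 was at 0.22 and KRT7 at -0.25 (adjusted p = 0.0535). ZEB1, the 1 of 4 mesenchymal markers that passed, fell by 1.06, and was at -0.40 after the correction.

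**Figure D5:**
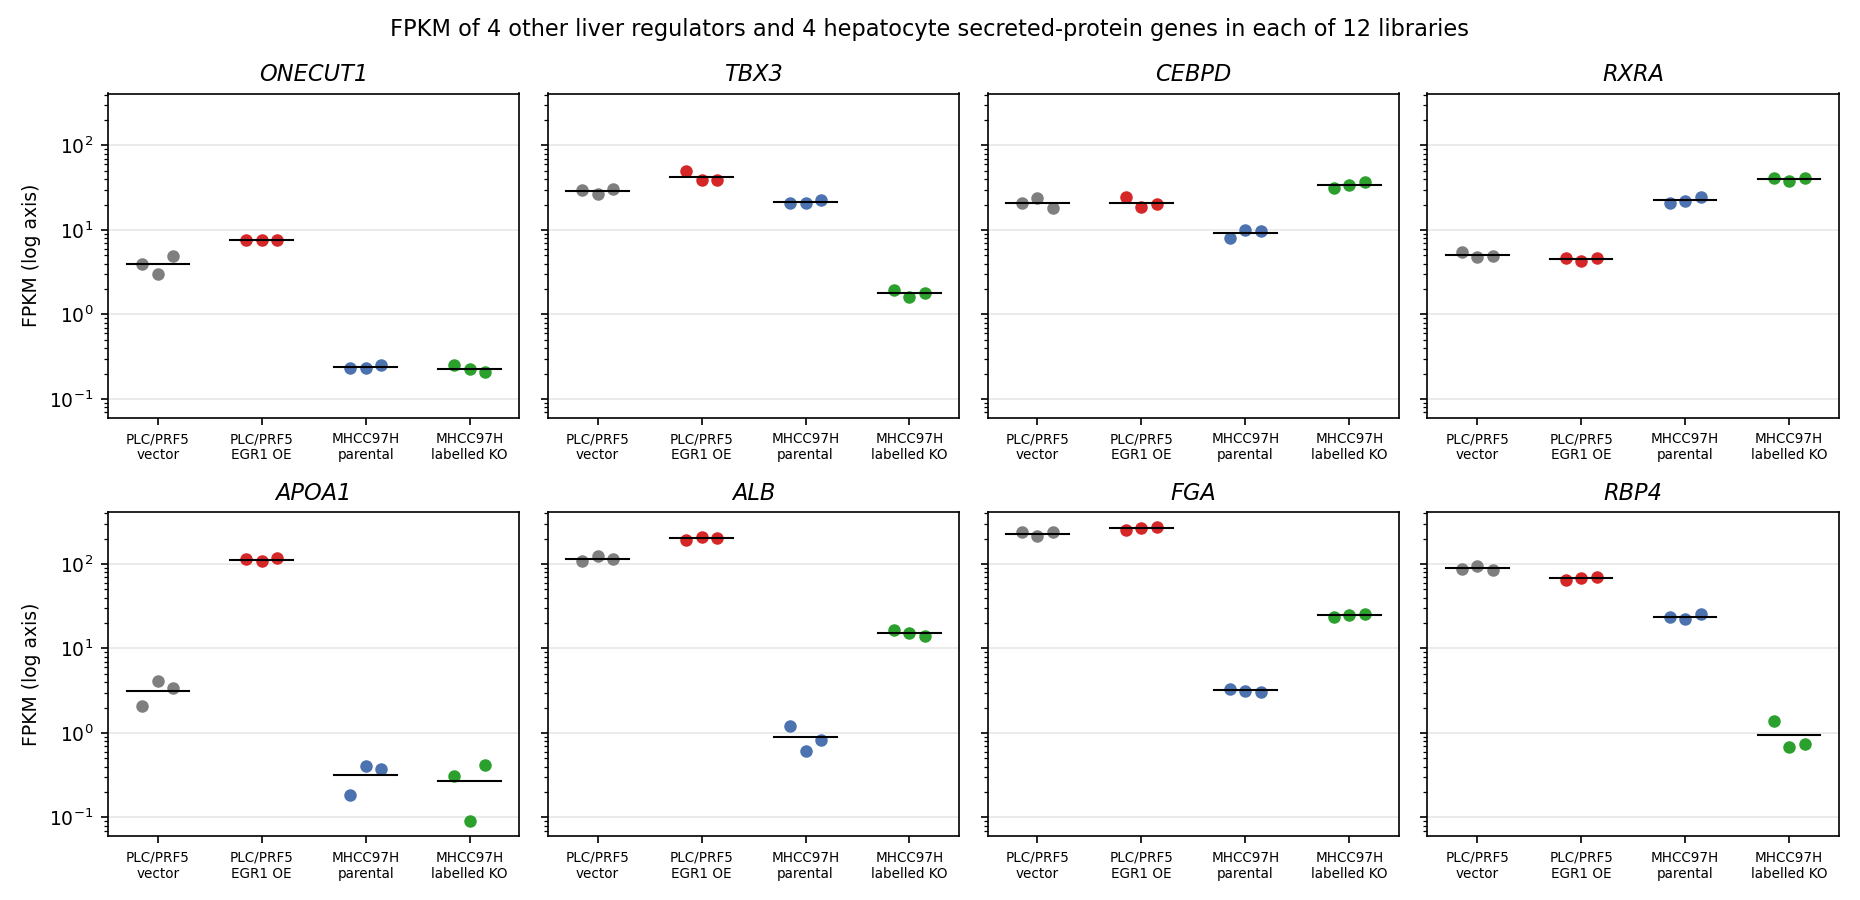
FPKM on a log axis of 4 other liver regulators and 4 genes of hepatocyte secreted proteins, 1 point for each library and a line at the group mean. APOA1 rises from a mean of 3.18 to 112.8 with EGR1 overexpression, while ALB and FGA rise and TBX3 and RBP4 fall in the libraries labelled knockout.

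Of the 12 hepatocyte genes tested in both EGR1 comparisons 5 passed in both. The share of all genes that did so was not taken, so this count does not set the list apart. ALB (0.79 and 3.11), FGB (0.45 and 2.35) and IGFBP1 (1.81 and 0.27) rose in both, RBP4 fell in both (-0.38 and -3.69), and TF fell by 0.46 with EGR1 overexpression and rose by 0.72 in the libraries labelled knockout, where it was at 1.35 after the correction. The IGFBP1 call in the libraries labelled knockout was lost after the correction (0.04, limma adjusted p = 0.725).

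The genes whose log2(FPKM + 1) over the 12 libraries was most like that of each factor are given as a description, with Pearson's r over libraries that fall into 2 lines, so that r is set mainly by the gap between the lines. They were NHSL1 (0.991) and IGF2BP2 (0.990) for HNF4A, GATA3 (0.970) and MBOAT7 (0.970) for FOXA1, AC104109.3 (0.896) and IRF2BP2 (0.808) for FOXA2, and ASS1 (0.997) and GOT1 (0.996) for FOXA3. For CEBPA they were SORBS3 (0.998) and SOX18 (0.996), for CEBPB C8orf88 (0.963) and NR2F2 (0.963), for NR5A2 ETNPPL (0.998) and IGFBP1 (0.998), and for PROX1 CCND1 (0.997) and TRIM71 (0.997). Of 9 antisense or neighbouring genes looked for by name, TTC6 beside FOXA1 was listed, at FPKM between 0.434 and 1.43. Whether the counting used the strand was not given in the sources used here.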

How the data were processed

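Oligo(dT)-selected RNA of 12 libraries was treated with duplex-specific nuclease and read by Illumina NovaSeq sequencing. Values were deposited by the authors as FPKM per gene name. The submitters' processing notes name StringTie and hg38, and versions, aligner and annotation are not given in the sources used here. No column was left unused, and the depth is unknown. Groups come from the sample labels.

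FPKM were log2-transformed after adding 1 and tested with limma 3.58.1 (R 4.3.3, intensity trend), each pair of groups alone, without covariates, over genes averaging an FPKM of 1 or more, called at adjusted p under 0.05. In simulated data 88% of 200 genes changed by 1 on the log2 scale were recovered among the 11671 genes of the EGR1 overexpression comparison, with 0.122% of unchanged genes called. The largest change of a factor in that comparison was 0.64, so the recovered share does not cover changes of the sizes reported for the factors there.

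Coordinates, transcript GC content and length come from GENCODE release 29 on GRCh38 (19458 of 22963 names matched), and the correction used splines with 5 degrees of freedom. Promoter windows come from RefSeq (GRCh38.p14). Plots used matplotlib 3.10.9.

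The members and gene lists were chosen with earlier results of these data known. Named were the members, EGR1, in each list and comparison the 4 largest rises and 4 largest falls among called genes whose groups did not overlap, hepatocyte genes called in both EGR1 comparisons, the 2 genes with the highest r to each member, and neighbouring genes averaging an FPKM of 0.1 or more. The other regulators called in both EGR1 comparisons were named after their values were seen. Some genes that the rule would name are not reported here. Alternatives were a pseudocount of 0.1, all genes above 0, 2 scalings, a block for the replicate number, no intensity trend, a joint fit of all 12 libraries, a stricter threshold of 0.01, the GC and length correction with and without the block, and leaving out each library. The correction over all genes above 0 was chosen after seeing the data. FPKM are not counts, so no count test was run.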

Additional observations from a re-analysis of the deposited data

Results flagged for a closer look

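The change with EGR1 overexpression in PLC/PRF5 and the change in the MHCC97H libraries labelled knockout differed for 6 of the 8 factors by limma's test of the difference over all 12 libraries, beside 63.8% of 12090 genes, so the count does not set the factors apart. The difference on the log2 scale was -1.18 for FOXA1, -1.29 for CEBPA, -1.13 for CEBPB, 1.24 for FOXA3, 0.60 for NR5A2 and 0.84 for PROX1. FOXA1, CEBPA and FOXA3 kept this call after the GC and length correction. FOXA3, PROX1 and NR5A2 averaged below an FPKM of 1 over the MHCC97H libraries and entered this fit only through PLC/PRF5, so their differences follow in part from the filter and the scale. After the correction 5667 of 11248 genes were called. No group had more than 3 libraries, so no single library was tested as standing apart.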

How the results depend on the processing

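The number of factors called with EGR1 overexpression was 3 and became 1 when genes of any level were tested or at a threshold of 0.01, and ran from 1 to 4 without single libraries. For the libraries labelled knockout this number went from 3 to 5 when genes of any level were tested. All genes called with EGR1 overexpression numbered 3457, 1468 at a threshold of 0.01 and 1944 to 4007 without single libraries. In the libraries labelled knockout they numbered 7671, and 5081 with the GC and length correction. Of called genes, 64.8% rose with EGR1 overexpression and 46.3% with quantile normalization, and 52.5% rose in the libraries labelled knockout and 41.6% with scaling to a common total.

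The sign turned for FOXA2, for CEBPB with EGR1 overexpression (-0.22) and for the called NR5A2 difference (0.60). For FOXA2 with EGR1 overexpression the value was 0.12 with the correction, 0.083 with it over genes of any level, and -0.14 to 0.058 without single libraries. In the libraries labelled knockout FOXA2 had -0.49, -0.32 over genes of any level, -0.11 with a common total, -0.067 with quantile normalization, and -0.0034 to 0.10 without single libraries. Between the controls it was -0.0053 to 0.094 without single libraries. Its difference between the comparisons was 0.59 with the correction, 0.38 over genes of any level, 0.068 with a common total, and -0.18 to 0.018 without single libraries. CEBPB with EGR1 overexpression was 0.057 and the NR5A2 difference -0.10 with the correction. The cause was not tested. Over genes of any level the correction gave NR5A2 0.47 in the libraries labelled knockout (limma adjusted p = 0.00184), from 0.05 without it, at FPKM below 0.43.

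The main fits did not pair libraries by replicate number, and the labels do not say whether same-numbered libraries were handled together. Deviations of same-numbered libraries correlated between -0.132 and 0.136 with EGR1 overexpression. In the MHCC97H comparison they correlated at 0.0317, 0.0302 and 0.467 for replicates 1, 2 and 3. Between the controls, which are different lines, the values ran from -0.393 to -0.00823. With the replicate block 3253, 7987 and 9249 genes were called with EGR1 overexpression, in the libraries labelled knockout and between the controls. The members' calls stayed except FOXA1 between the controls (limma adjusted p = 0.0623) and, with block and correction, FOXA1 with EGR1 overexpression (0.0530) and the HNF4A difference (0.0502). The corrected values with the block were 0.12, -0.49 and 0.59 for FOXA2, 0.057 for CEBPB and -0.10 for NR5A2.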
